A study of Rattus rattus with 24 samples.

Results

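The 46 genes described here encode receptors for glutamate, GABA and glycine, and were measured in rat oligodendrocyte precursor cells (OPCs) that were differentiating in culture. A gene was included when its symbol began as those of the AMPA, kainate, delta or NMDA receptor subunits, the metabotropic glutamate receptors, the GABA-A, rho or GABA-B subunits or the glycine receptor subunits, and when it had a probe set annotated with that symbol alone. These were 46 of 14217 genes with such a probe set. The gene was represented by its probe set with the highest mean, and 23 of the 46 genes had several probe sets. OPCs were selected with A2B5 beads from cortices of rat pups in their first postnatal week, expanded with PDGF, and then kept for 48 or 96 hours with 45 nM T3 plus 1 µM quetiapine, with 1 µM quetiapine, with 45 nM T3 or with vehicle alone (control). All cultures, controls included, were in a medium with the B27 supplement, which brings a small amount of T3, and the medium was changed at 48 hours. Each of the 8 groups had 3 arrays, 1 from each of 3 biological replicates, so that every replicate contributed a culture to every group. A2B5 selection is an enrichment, and the cultures were measured whole.

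Glutamate acts on ion channels built from AMPA, kainate and NMDA receptor subunits and on metabotropic receptors, which signal through G proteins. GABA acts on GABA-A channels and on the GABA-B receptor, a G protein-coupled pair of Gabbr1, which binds GABA, and Gabbr2, which engages the G protein. OPCs are known to receive synapses from neurons and to express AMPA and GABA-A receptors, and they lose much of this input as they become oligodendrocytes.

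All values are log2 expression, so that a difference of 1 is a 2-fold change, and levels of different genes cannot be set against each other because each probe set binds with its own strength. The median of the probe set means was 6.48. In the 96 hour cultures, all 8 of the measured oligodendrocyte markers were higher with each treatment than in control (limma, adjusted p under 0.05). Their mean level was 13.08 to 13.33 with T3 plus quetiapine, 12.71 to 12.87 with quetiapine and 12.75 to 13.03 with T3, against 11.45 to 11.78 in control. Of 7 precursor markers, 4 were lower and 0 higher with T3 plus quetiapine, with list means of 9.68 to 9.91 against 10.24 to 10.75 in control. Of 8 astrocyte markers, 4 were lower and 1 was higher with the combination, with list means of 9.22 to 10.02 against 10.19 to 10.71 in control. With the replicate as a block in the fit, 6 precursor and 6 astrocyte markers were lower with the combination, and 0 and 1 higher. Of 10 neuron markers, 3 were lower (Dcx, Rbfox3 and Map2) and 3 higher (Nefm, Elavl3 and Syt1), with a median list mean of 8.10 against 8.48 in control, and the 8 microglia markers had a median change of 0.00. Control replicate 2 at 48 hours had the highest microglia list mean, 6.44, beside 5.19 and 5.36 on the other control arrays of that time. The 16 genes of other organs, such as liver and pancreas, had a median level of 4.65 and ran from 2.83 to 13.02, the level of Pnlip, so that 4.65 describes dim probe sets and is not a limit of detection. The 3′ minus 5′ difference of the beta-actin probe sets was 0.70 to 0.77 with T3 plus quetiapine and 0.64 to 0.67 in control at 96 hours.

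Of the 46 receptor genes, 17 had a mean over the 24 arrays above the median probe set level of 6.48 and 29 had a mean below it. The subunit genes above it were Gria2, Gria3 and Gria4 (AMPA), Grik2, Grik4 and Grik5 (kainate), Grin1 and Grin2c (NMDA), Gabra4, Gabra5, Gabrb1, Gabrg1 and Gabrd (GABA-A) and Glrb (glycine). The G protein-coupled receptors above it were Grm8, Gabbr1 and Gabbr2. Grm3 and Gabra2 reached it in 1 group each, the combination and the control at 96 hours. A gene was called changed when its adjusted p in limma was under 0.05, with p-values adjusted over all 31042 probe sets tested.

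With T3 plus quetiapine at 96 hours, 13 of the 46 receptor genes passed the test against control, 4 of them higher (Grm3, Grm7, Gabrg1 and Gabbr2) and 9 lower (Gria2, Grm2, Gabra2, Gabra4, Gabra5, Gabrb1, Gabrb2, Gabbr1 and Glra2). That is 28.3% of the receptor genes, against 35.1% of all genes (15.2% higher and 20.0% lower), so the receptor genes were not called more often than genes in general. T3 alone changed 6 of 46 (2 higher and 4 lower, against 14.7% of all genes, 6.58% higher and 8.08% lower). Quetiapine alone changed 3 of 46 (1 higher and 2 lower, against 7.25% of all genes, 4.21% higher and 3.04% lower). The order of these counts is that of the shares over all genes. The median change of the 46 genes was 0.03 with the combination, -0.01 with T3 and -0.02 with quetiapine, against -0.01, -0.02 and -0.01 over all genes. The 3 treatments share the same control arrays, and in whole cultures fewer cells of a type and less RNA per cell cannot be told apart. With the replicate as a block the counts were 19 of 46 with the combination, 12 with T3 and 8 with quetiapine, beside 47.6%, 30.1% and 21.5% of all genes.

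**Figure D1:**
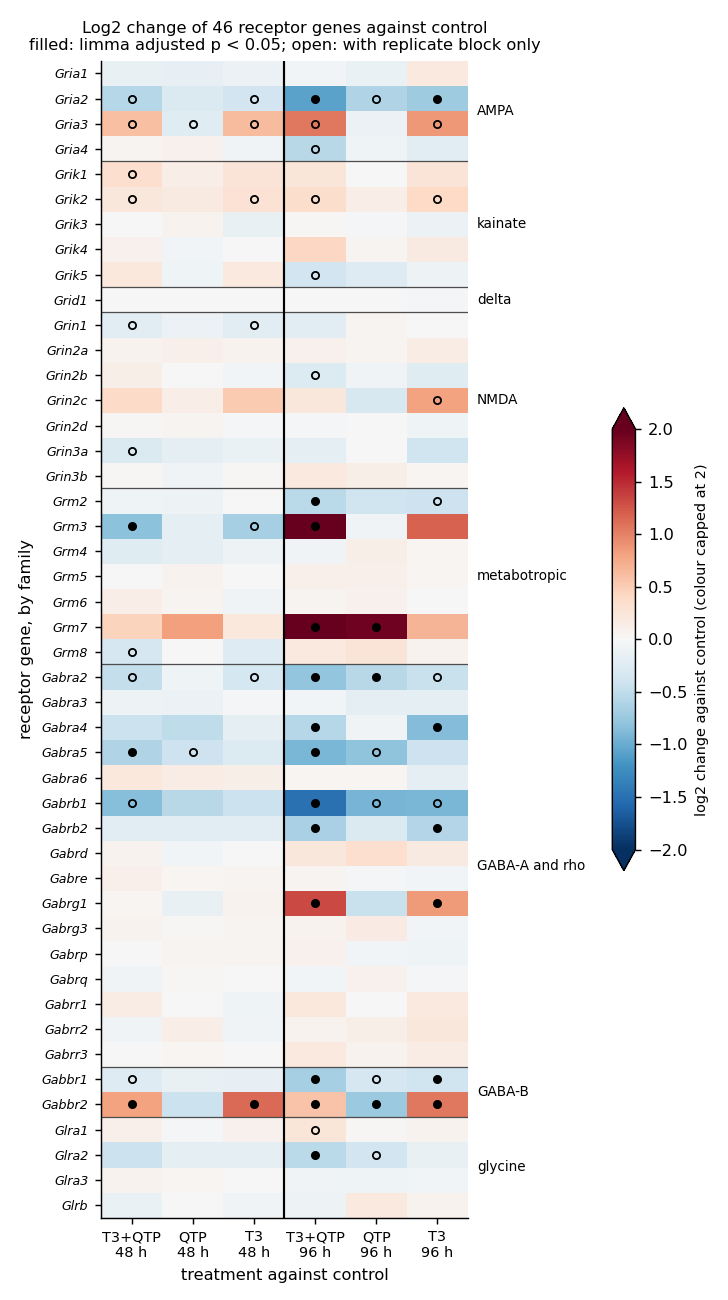
Log2 change of each of the 46 receptor genes against control (rows, grouped by receptor family) in each treatment at 48 and 96 hours (columns), with a filled circle on the changes that passed limma's test and an open circle on those that passed with the replicate block alone (red higher, blue lower, colours capped at 2). Grm3 with T3 plus quetiapine at 96 hours, at 3.58, stands out from the other cells, and most rows of subunits below the median probe set level are pale throughout.

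**Figure D2:**
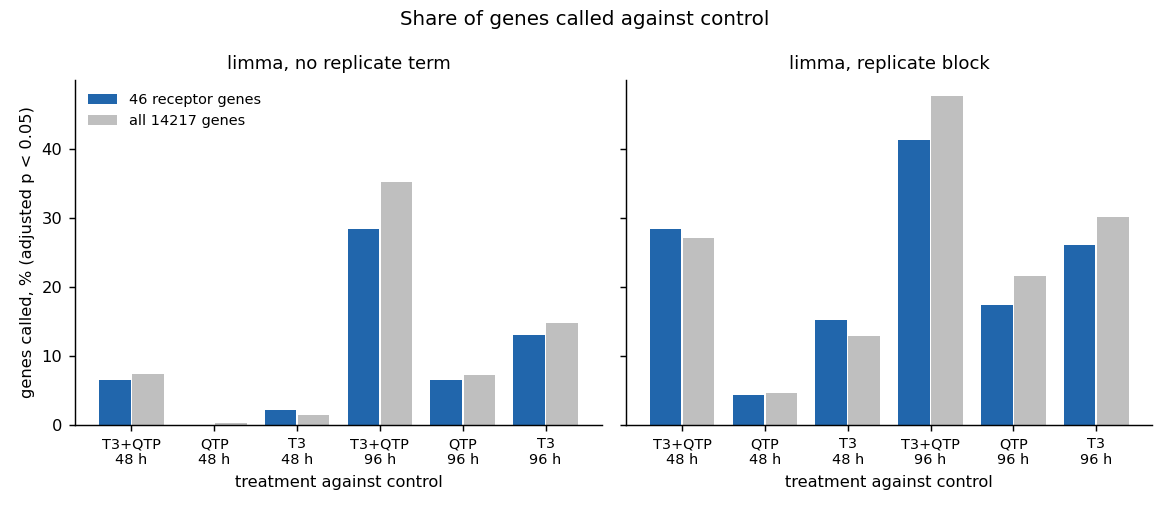
Percent of the 46 receptor genes and of all 14217 genes that passed limma's test against control, by treatment and time, without a replicate term (left panel) and with the replicate as a block (right panel). The bars of the receptor genes lie close to those of all genes, with 28.3% against 35.1% for T3 plus quetiapine at 96 hours.

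Among the AMPA receptor genes, which encode the channels of fast excitation, Gria2 fell. Its subunit keeps calcium out of the channel. Gria2 had 10.34, 10.57 and 10.24 with T3 plus quetiapine at 96 hours, 10.97, 10.73 and 10.54 with T3, 10.67, 11.19 and 10.69 with quetiapine, and 11.74, 11.42 and 11.20 in control. No treated array reached the lowest control array. The change was -1.07 (SE 0.177, adjusted p = 0.00107 in limma) with the combination and -0.70 (SE 0.177, adjusted p = 0.0264) with T3, while that with quetiapine was -0.60 (SE 0.177, adjusted p = 0.0768). A second Gria2 probe set gave -1.11 with the combination (adjusted p = 0.00481). The T3 call was lost without control replicate 1 or 2 or without T3 replicate 2 or 3 (adjusted p up to 0.0976). Gria2 had already 11.03, 10.86 and 10.41 with the combination at 48 hours, against 11.38, 11.37 and 11.28 in control, a change of -0.58 (adjusted p = 0.0716) that passed in limma with the replicate as a block (adjusted p = 0.00147). At 96 hours the quetiapine change passed with the block as well (adjusted p = 0.0147).

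Gria3 went the other way where T3 was present. It is described by array because of these values, which were seen first. It had 9.74, 9.58 and 9.32 with T3 plus quetiapine, 9.93, 9.30 and 8.85 with T3 and 9.13, 8.31 and 7.66 with quetiapine at 96 hours, and 9.52, 8.19 and 7.74 in control. Replicate 1 was the highest of its group in all 4 groups, and the groups overlapped. The differences of 1.06 with the combination (SE 0.461, adjusted p = 0.111 in limma) and 0.87 with T3 (SE 0.461, adjusted p = 0.272) did not pass without the block. Within each of the 3 replicates, however, the combination and T3 arrays were above their own control, and with the replicate as a block both passed (adjusted p = 0.00213 and 0.012). Without the block the combination change passed when control replicate 1 was left out (1.58, adjusted p = 0.015 in limma). The second Gria3 probe set changed by 0.95 and 0.76. At 48 hours the values were 9.78, 9.30 and 9.13 with the combination, 9.83, 9.37 and 9.14 with T3, and 9.25, 8.62 and 8.56 in control, again higher in 3 of 3 replicates for both (adjusted p = 0.000102 and 0.000149 with the block, 0.199 and 0.314 without it). Quetiapine against T3 gave -0.89 at 48 hours and -0.99 at 96 hours (adjusted p = 1.46e-05 and 0.0128 with the block, 0.139 and 0.326 without it).

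Gria4 had 7.56, 6.88 and 7.26 with T3 plus quetiapine at 96 hours, against 8.17, 7.53 and 7.67 in control, lower within 3 of 3 replicates. The change was -0.56 (SE 0.203, adjusted p = 0.0589 in limma, 0.00194 with the block), and another of its probe sets passed without the block at -0.55 (adjusted p = 0.039). In the combination cultures Gria4 fell by 0.78 at 96 against 48 hours (SE 0.184, adjusted p = 0.00409). Gria1, the remaining AMPA subunit, was below the median probe set level and passed in no comparison.

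The kainate receptor genes moved little. The changes of the 5 genes against control at 96 hours ran from -0.39 to 0.41 with T3 plus quetiapine, from -0.26 to 0.13 with quetiapine and from -0.11 to 0.40 with T3, and none passed without the block. With the block 1 was higher and 1 lower with the combination, and 1 was higher with T3 (47.6% and 30.1% of all genes called). At 48 hours the block gave 2 higher with the combination and 1 higher with T3 (27.0% and 12.9% of all genes called). Grik2, a principal channel subunit, was 0.40 higher with T3 (3 of 3 replicates, adjusted p = 0.0379 in limma with the block, 0.297 without). Grik1 was 0.33 higher with the combination at 48 hours (adjusted p = 0.0261 with the block, 0.221 without). Grik5, an auxiliary high-affinity subunit, fell by 0.67 in the combination cultures at 96 against 48 hours (SE 0.22, adjusted p = 0.0342), a call lost without replicate 1 or 2 of the combination at 48 hours or replicate 2 or 3 at 96 hours (adjusted p up to 0.197). Grik3 and Grik4 passed in no comparison and in neither fit with all arrays kept. When control replicate 1 at 96 hours was left out, Grik4 passed at 0.71 with the combination and 0.47 with T3 (adjusted p = 0.00214 and 0.0409 in limma). Grid1, the 1 delta receptor gene measured, changed by -0.03 to 0.02 in every treatment at both times.

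The NMDA receptor genes gave no call without the block at either time. Grin1, the subunit that every NMDA receptor contains, changed by -0.22 with the combination at 48 hours (adjusted p = 0.405 in limma, 0.019 with the block). Grin2c, a glutamate-binding subunit, had 7.48, 8.29 and 8.81 with T3 at 96 hours, 7.22, 7.83 and 7.81 with T3 plus quetiapine, 6.83, 7.17 and 7.21 with quetiapine, and 6.92, 7.53 and 7.71 in control. T3 exceeded the other groups within each of the 3 replicates, although the arrays of the groups overlapped. The T3 change of 0.81 (SE 0.313) had an adjusted p of 0.128 in limma without the block and 0.0026 with it. Quetiapine against T3 gave -1.13 (adjusted p = 0.0931, and 0.000838 with the block), and T3 plus quetiapine against T3 gave -0.58 (adjusted p = 0.4, and 0.0278 with the block). Grin2a, Grin2b, Grin2d, Grin3a and Grin3b were below the median probe set level in all groups, and their changes at 96 hours lay between -0.40 and 0.19. Of these, Grin3a passed with the combination at 48 hours (-0.29) and Grin2b at 96 hours (-0.27) with the block alone (adjusted p = 0.0118 and 0.0491, against 0.332 and 0.206 without it).

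Grm3, a metabotropic receptor that lowers cyclic AMP, showed the largest change of all 46 genes in any comparison with control. It had 6.70, 8.46 and 9.76 with T3 plus quetiapine at 96 hours. With quetiapine it had 4.35, 4.75 and 4.86, with T3 4.90, 5.96 and 6.84, and in control 5.11, 4.63 and 4.44. Replicates 2 and 3 of the combination were above every array of the other groups, and replicate 1 of the combination was below replicate 3 of T3. Grm3 was thereby higher with T3 plus quetiapine (log2 change 3.58, SE 0.653, 95% interval 2.14 to 5.02, adjusted p = 0.00193 in limma), and the difference within a replicate ran from 1.58 to 5.32. The control and quetiapine arrays lay around the 4.65 median of the genes of other organs, so these are differences of measured signal. Neither agent alone passed, at 1.17 with T3 (SE 0.653, adjusted p = 0.303) and -0.07 with quetiapine (SE 0.653, adjusted p = 0.969). The combination exceeded quetiapine by 3.65 (adjusted p = 0.00853) and T3 by 2.41 (adjusted p = 0.0899, and 0.0156 with the block). The interaction of the agents, the amount by which the combination departed from the sum of the single changes, was 2.48 (95% interval 0.45 to 4.51) and did not pass (adjusted p = 1, and 0.426 with the block).

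At 48 hours Grm3 was dim in all groups. It had 4.18, 3.92 and 4.34 with T3 plus quetiapine, 4.57, 4.77 and 5.03 with quetiapine, 4.27, 4.06 and 4.57 with T3, and 4.60, 4.94 and 5.36 in control. The combination was 0.82 below control (SE 0.202, adjusted p = 0.0404 in limma), with no overlap. The call was lost without any 1 of 7 arrays: replicate 1, 2 or 3 of the combination, control replicate 2 or 3, T3 replicate 1 or quetiapine replicate 2 (adjusted p up to 0.141). T3 alone was 0.67 below control, lower in 3 of 3 replicates, and quetiapine was 0.49 above T3, and both passed with the block (adjusted p = 0.00531 and 0.0211) and not without it (adjusted p = 0.177 and 0.36). All of these 48 hour levels lay around the 4.65 median of the genes of other organs, and the combination group, at a mean of 4.14, lay below it. The size of differences taken against them as a change in RNA is not known. On the scale of measured signal the combination effect differed between the times by 4.40 (SE 0.734, adjusted p = 0.00156), and within the combination cultures Grm3 was 4.16 higher at 96 than at 48 hours (adjusted p = 1.87e-05).

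Grm7, a presynaptic metabotropic receptor in neurons, was higher where quetiapine was present. It had 5.56, 5.80 and 7.42 with T3 plus quetiapine, 6.12, 4.97 and 6.84 with quetiapine and 4.96, 4.29 and 4.86 with T3 at 96 hours, against 3.92, 4.07 and 4.10 in control. All treated arrays were above all control arrays. The increase was 2.23 with the combination (SE 0.5, adjusted p = 0.00627 in limma) and 1.95 with quetiapine (SE 0.5, adjusted p = 0.0451), whereas T3 gave 0.68 (adjusted p = 0.462). The control arrays were all below the 4.65 median of the genes of other organs, so these are differences of measured signal and no fold is given. The quetiapine call was lost without any 1 of 9 of the 12 arrays, the exceptions being quetiapine replicate 2 and combination replicates 1 and 3 (adjusted p up to 0.145), and it had an adjusted p of 0.0598 with a trended and robust prior. Quetiapine exceeded T3 by 1.27 in 3 of 3 replicates (adjusted p = 0.237, and 0.049 with the block). At 48 hours replicate 3 alone was high, with 5.37 for the combination and 6.03 for quetiapine beside values of 3.81 to 4.21 in replicates 1 and 2 of these groups.

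Grm2, which couples to the same G protein class as Grm3, was lower with the combination. It had 5.84, 5.73 and 5.77 with T3 plus quetiapine, against 5.98, 6.27 and 6.69 in control, with no overlap and a control group that spread more than the treated one. The change of -0.54 (SE 0.144, adjusted p = 0.0164 in limma) was lost without combination replicate 2 (adjusted p = 0.0565). Each agent alone also gave a lower mean, by -0.42 with T3, which passed with the block only, and by -0.39 with quetiapine, which passed in neither fit. Both passed without the block when control replicate 1 was left out (-0.59 and -0.56, adjusted p = 0.0161 and 0.0239 in limma). Grm8, of the same class, was 0.34 below control at 48 hours and 0.19 above it at 96 hours with the combination. Neither change passed (adjusted p = 0.0709 and 0.239), but their difference of 0.52 did (adjusted p = 0.0395), a call lost without any 1 of 9 of the 24 arrays (replicates 2 and 3 of the combination and of control at 96 hours, replicates 2 and 3 of the combination, replicates 1 and 3 of control and replicate 2 of T3 at 48 hours, adjusted p up to 0.11). With the mean of the Grm8 probe sets the difference did not pass (adjusted p = 0.158). Grm4, Grm5 and Grm6 stayed below the median probe set level and passed in no comparison.

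**Figure D3:**
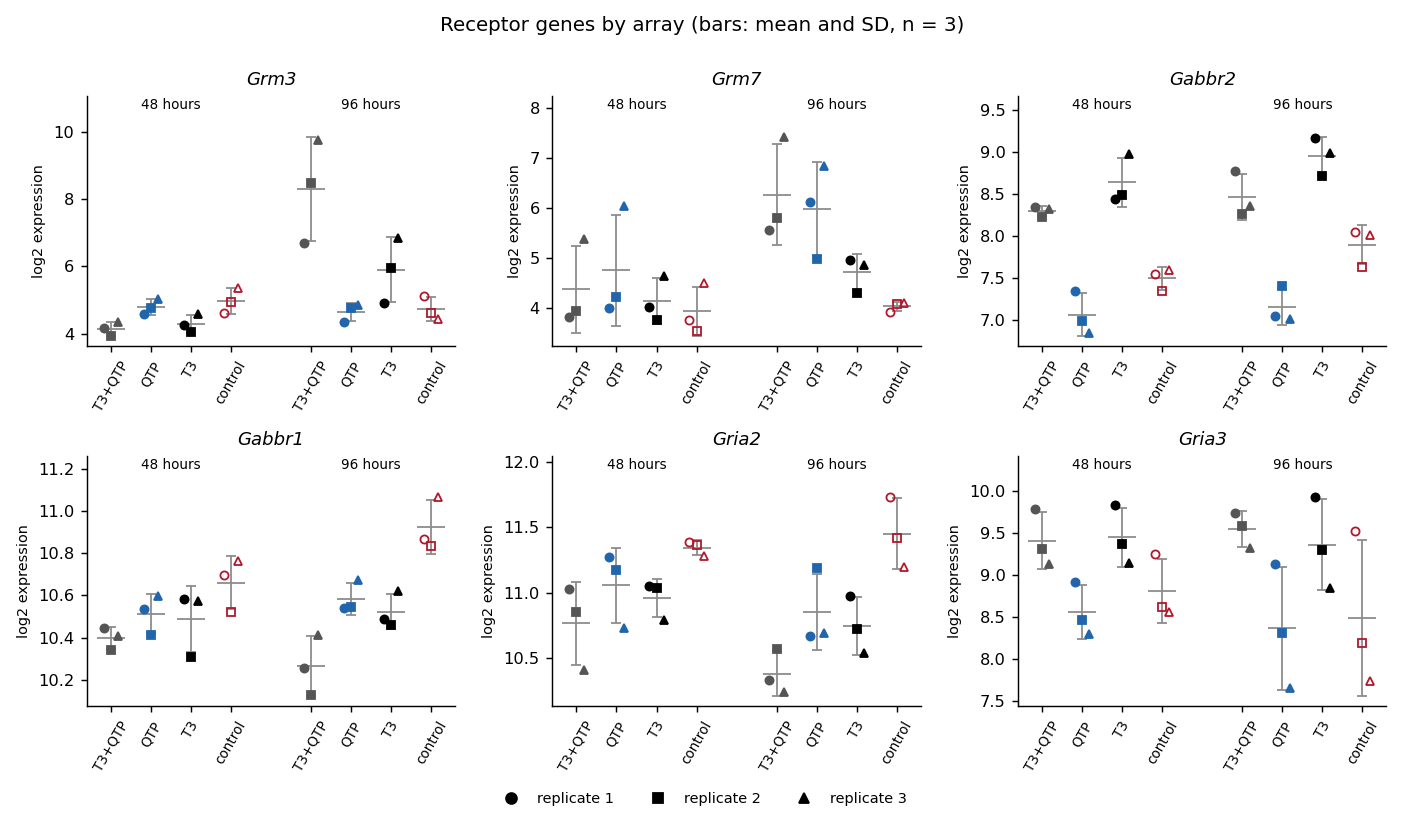
Log2 expression of Grm3, Grm7, Gabbr2, Gabbr1, Gria2 and Gria3 on each of the 24 arrays, by group (T3 plus quetiapine, quetiapine, T3 and control, at 48 and 96 hours), with a symbol for each replicate and bars for the mean and SD (n = 3). Gabbr2 was lowest with quetiapine and highest with T3 at both times, and Grm3 stood above 6 with T3 plus quetiapine at 96 hours on 3 of 3 arrays.

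The pair of GABA-B receptor genes moved apart with T3. Gabbr2 had 8.78, 8.26 and 8.35 with T3 plus quetiapine, 7.05, 7.40 and 7.02 with quetiapine and 9.16, 8.71 and 8.98 with T3 at 96 hours, against 8.04, 7.63 and 8.02 in control. Every T3 array was above every control array and every quetiapine array below. The change was 1.06 with T3 (SE 0.175, 2.08-fold, adjusted p = 0.00335 in limma), -0.74 with quetiapine (SE 0.175, adjusted p = 0.0324) and 0.57 with the combination (SE 0.175, adjusted p = 0.031). Quetiapine against T3 gave -1.80 (SE 0.175, adjusted p = 0.000383), a 3.47-fold lower level, and the combination exceeded quetiapine by 1.31 (adjusted p = 0.00201). The interaction was 0.25 (95% interval -0.30 to 0.79, adjusted p = 1).

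Gabbr2 was ordered in the same way at 48 hours, with 8.35, 8.23 and 8.32 with T3 plus quetiapine, 7.34, 6.99 and 6.85 with quetiapine, 8.44, 8.49 and 8.98 with T3, and 7.54, 7.35 and 7.60 in control. T3 raised it by 1.14 (SE 0.154, adjusted p = 0.00617 in limma), the 1 gene of 46 that passed without the block (1.42% of all genes), and quetiapine was 1.58 below T3 (adjusted p = 0.000493, again 1 of 46, 2.15% of all genes). With the block 7 passed for T3 (12.9%), Gria3 and Grik2 higher with Gabbr2, and Gabra2, Gria2, Grin1 and Grm3 lower. Between quetiapine and T3 3 passed (12.1%), Gria3 and Grm3 beside Gabbr2. The combination gave 0.80 (adjusted p = 0.0148) and quetiapine -0.44 against control, the last without a call. The T3 calls at both times, and both differences between quetiapine and T3, held whichever array was left out. The quetiapine call at 96 hours was lost without replicate 1 or 3 of quetiapine or of control (adjusted p up to 0.12), the combination call at 96 hours without combination replicate 1 or control replicate 2 (up to 0.109), and the combination call at 48 hours without combination replicate 3 or control replicate 2 (up to 0.0585). A second, dim Gabbr2 probe set (mean 4.83) changed by 0.16 with T3 and 0.18 with the combination, and neither passed. With the mean of both probe sets the quetiapine change was -0.39 (adjusted p = 0.0557).

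Gabbr1 fell at 96 hours. It had 10.25, 10.13 and 10.41 with T3 plus quetiapine, 10.54, 10.54 and 10.67 with quetiapine, 10.49, 10.46 and 10.62 with T3, and 10.87, 10.84 and 11.07 in control. All treated arrays were below all control arrays. The change was -0.66 with the combination (SE 0.0951, adjusted p = 0.000448 in limma), -0.40 with T3 (SE 0.0951, adjusted p = 0.0204) and -0.34 with quetiapine (SE 0.0951, adjusted p = 0.0643, and 0.00382 with the block). The T3 call was lost without T3 replicate 1 or 2 or control replicate 3 (adjusted p up to 0.0858) and with the mean of its probe sets (adjusted p = 0.0552). Of the 4 other Gabbr1 probe sets, the brighter pair fell further with the combination, by 1.55 (adjusted p = 0.00198) and 1.17 (adjusted p = 0.00323), whereas the dimmer pair gave -0.33 and -0.03 and did not pass.

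Of the 16 GABA-A and rho subunit genes, 1 rose and 5 fell with T3 plus quetiapine at 96 hours, a share close to the 35.1% of all genes called. Of these genes, 4 lie next to one another in a known cluster: in the RefSeq annotation of the Rattus rattus assembly Rrattus_CSIRO_v1, Gabrg1 was followed by Gabra2, then by Gabra4 with 2 other protein-coding genes in between, and then by Gabrb1. All 4 passed with the combination, but not in the same direction. Gabrg1, a gamma subunit found mainly outside the classical synaptic receptor, had 9.37, 10.39 and 10.17 with T3 plus quetiapine, 7.97, 8.42 and 8.25 with quetiapine and 9.25, 9.84 and 9.43 with T3 at 96 hours, against 8.56, 8.85 and 8.54 in control. The combination and T3 arrays were all above control, and the quetiapine arrays were all below. The change was 1.32 with the combination (SE 0.242, 2.50-fold, adjusted p = 0.00197 in limma), 0.85 with T3 (SE 0.242, adjusted p = 0.0436) and, for quetiapine against T3, -1.29 (adjusted p = 0.0189). The combination exceeded quetiapine by 1.76 (adjusted p = 0.00237). The call with T3 was lost without any 1 of 8 of the 12 arrays, the exceptions being replicate 1 of T3 and of quetiapine and replicates 1 and 2 of the combination (adjusted p up to 0.172), and the call between quetiapine and T3 without quetiapine replicate 1 or 3 or T3 replicate 2 or 3 (up to 0.0965).

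The other 3 genes of the cluster were lower with the combination. Gabra2, an alpha subunit, had 5.95, 5.57 and 5.80 with T3 plus quetiapine, 6.02, 6.09 and 5.90 with quetiapine and 5.97, 6.12 and 6.26 with T3, against 6.35, 6.46 and 6.87 in control, with no overlap between any treatment and control. Its change was -0.79 with the combination (SE 0.142, adjusted p = 0.00181 in limma) and -0.56 with quetiapine (SE 0.142, adjusted p = 0.0442). With T3 it was -0.44 (adjusted p = 0.07, and 0.0371 with the block). The quetiapine call was lost without any 1 of 8 of the 12 arrays, the exceptions being replicate 1 of T3, of control and of the combination and replicate 2 of the combination (adjusted p up to 0.141), and had an adjusted p of 0.0501 once each array was centred on its median.

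Gabra4, an alpha subunit of receptors outside the synapse, had 6.39, 6.44 and 6.52 with T3 plus quetiapine, 6.52, 7.18 and 7.17 with quetiapine and 6.08, 6.02 and 6.38 with T3, against 6.72, 7.17 and 7.18 in control. T3 and the combination lay below control, and quetiapine overlapped it. The change was -0.87 with T3 (SE 0.184, adjusted p = 0.0124 in limma) and -0.58 with the combination (SE 0.184, adjusted p = 0.0353), and quetiapine exceeded T3 by 0.80 (adjusted p = 0.0458). The T3 call was lost without T3 replicate 2 or control replicate 3 (adjusted p up to 0.0582), and the combination call without any of its own replicates or control replicate 2 or 3 (up to 0.118). The difference between quetiapine and T3 was lost without any 1 of 10 of the 12 arrays, the exceptions being replicate 1 of control and of quetiapine (up to 0.192).

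Gabrb1, a beta subunit, differed widely between replicates. It had 7.99, 8.46 and 8.83 with T3 plus quetiapine, 8.17, 9.34 and 9.47 with quetiapine and 8.44, 9.12 and 9.47 with T3, against 9.21, 10.14 and 10.40 in control. Replicate 1 was the lowest in every group, and each treated array was below the control of its own replicate. The combination change of -1.49 (95% interval -2.39 to -0.59, adjusted p = 0.0178 in limma) was lost without combination replicate 1 or control replicate 2 or 3 (adjusted p up to 0.0733). The fits with an array left out had no replicate term. With all arrays kept and the replicate as a block, the combination change passed as well. With T3 the change was -0.91 and with quetiapine -0.92, which passed with the block (adjusted p = 0.000386 and 0.000457) and not without it (adjusted p = 0.194 and 0.235). At 48 hours the combination change was -0.85 (adjusted p = 0.395, and 0.0019 with the block).

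**Figure D4:**
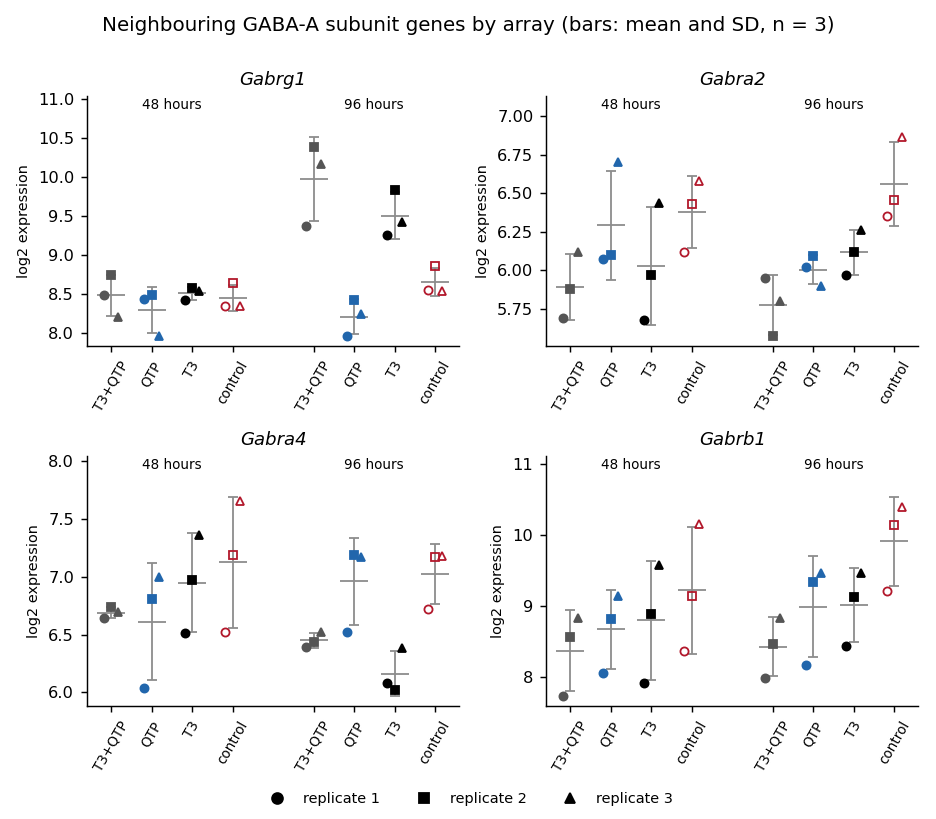
Log2 expression of the neighbouring GABA-A subunit genes Gabrg1, Gabra2, Gabra4 and Gabrb1 on each of the 24 arrays, by group, with a symbol for each replicate and bars for the mean and SD (n = 3). Gabrg1 was above control with T3 plus quetiapine and with T3 at 96 hours, where the other 3 genes were below control.

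Outside this cluster, Gabra5, an alpha subunit of extrasynaptic receptors, was lower with the combination at both times. It had 5.96, 6.29 and 6.50 with T3 plus quetiapine at 96 hours, against 7.05, 6.86 and 7.59 in control, and 6.19, 6.03 and 6.10 at 48 hours, against 6.81, 6.49 and 6.82. The groups did not overlap at either time. The change was -0.91 at 96 hours (SE 0.284, adjusted p = 0.0322 in limma) and -0.60 at 48 hours (SE 0.117, adjusted p = 0.0155). The first was lost without replicate 1 or 2 of the combination or 1 or 3 of control (adjusted p up to 0.125), and the other without replicate 2 or 3 of the combination or control replicate 3 (up to 0.0683). Quetiapine alone gave -0.80 at 96 hours (adjusted p = 0.137, and 0.00363 with the block). Gabrb2, a beta subunit, had 4.85, 4.81 and 4.94 with T3 plus quetiapine and 4.86, 4.76 and 5.17 with T3, against 5.58, 5.59 and 5.38 in control, changes of -0.65 (SE 0.113, adjusted p = 0.00139) and -0.59 (SE 0.113, adjusted p = 0.00772). Its second probe set disagreed, with 0.16 for the combination and 0.00 for T3, and all of these levels were below the median probe set level. Gabrd, a delta subunit of extrasynaptic receptors, passed only at 96 against 48 hours within quetiapine, at 0.38 (SE 0.101, adjusted p = 0.0495), and the call was lost without any 1 of 18 of the 24 arrays (adjusted p up to 0.223), the exceptions being control replicate 1 and T3 replicate 3 at 48 hours and, at 96 hours, replicate 2 of control, quetiapine and the combination and replicate 1 of the combination. Gabra3, Gabra6, Gabre, Gabrg3, Gabrp, Gabrq and the retinal rho subunits Gabrr1, Gabrr2 and Gabrr3 passed in no comparison.

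Among the glycine receptor genes, Glrb, the beta subunit that anchors the receptor to gephyrin, stood well above the median probe set level at 11.65 ± 0.14 with T3 plus quetiapine, 11.95 ± 0.06 with quetiapine and 11.83 ± 0.15 with T3, against 11.76 ± 0.10 in control (SD, n = 3 each, 96 hours). It passed in no comparison without the block. With the block the combination was 0.30 below quetiapine (adjusted p = 0.00935 in limma, 0.0992 without it). The ligand-binding subunit Glra2 averaged 3.63 ± 0.10 with T3 plus quetiapine, against 4.18 ± 0.31 in control (SD, n = 3 each). Its change of -0.55 (SE 0.162, adjusted p = 0.0256) was lost without combination replicate 2 or control replicate 3 (up to 0.0931), its second probe set gave 0.01, the mean of both had an adjusted p of 0.0717, and both groups lay below the 4.65 median of the genes of other organs. Glra1 was 0.24 higher with the combination with the block alone (adjusted p = 0.0104, and 0.129 without it), and Glra3 passed in no comparison.

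Precursor and astrocyte markers also fell in the 96 hour combination cultures in which Gria2, Gabbr1, Gabra2, Gabra4, Gabra5, Gabrb1, Gabrb2, Glra2 and Grm2 were lower. Oligodendrocyte markers rose in these cultures, in which Grm3, Grm7, Gabrg1 and Gabbr2 were higher, with the list means given above. All 8 of these markers rose with quetiapine alone too. There Grm7 was higher, but Gabbr2 was lower (-0.74), the Gabrg1 arrays lay below control and Grm3 did not pass. All 8 rose with T3 alone as well, where Gabbr2 and Gabrg1 were higher and Grm3 and Grm7 did not pass. The part of cell composition in these changes was not tested.

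At 48 hours few receptor genes had passed. The combination changed 3 of 46, with Gabbr2 higher and Gabra5 and Grm3 lower (7.34% of all genes, 3.12% higher and 4.22% lower). Quetiapine changed 0 of 46 in limma (0.183% of all genes), with 2 at an unadjusted p under 0.05. With the block, 13 genes passed with the combination, 7 with T3 and 2 with quetiapine (27.0%, 12.9% and 4.62% of all genes).

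Direct comparisons of the treatments at 96 hours singled out a few genes. Between quetiapine and T3, Gabbr2 and Gabrg1 were lower and Gabra4 higher with quetiapine (3 of 46, 3.31% of all genes), and 6 passed with the block (14.4%). T3 plus quetiapine exceeded quetiapine for Grm3, Gabrg1 and Gabbr2 (3 of 46, against 9.24% of all genes, of which 4.36% rose and 4.87% fell). The block raised this to 13 genes, 6 up and 7 down (23.8%). Against T3, 0 of 46 passed (2.33% of all genes), with 6 at an unadjusted p under 0.05, and 8 passed with the block (14.9%). No receptor gene passed for the interaction of the agents in either fit (0.0492% and 0.366% of all genes), with 4 at an unadjusted p under 0.05.

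Between the times, the control cultures gave 0 of 46 calls at 96 against 48 hours in limma (0.0281% of all genes), with 4 at an unadjusted p under 0.05. With the block 3 were higher at 96 hours (4.42% of all genes), namely Gabbr1 at 0.26, Gabrb1 at 0.70 and Grm2 at 0.47. These 3 were all below control with T3 plus quetiapine at 96 hours. Both comparisons use the same control arrays of 96 hours, so high values on them move both results. In the combination cultures 6 passed (27.2% of all genes, 11.3% higher and 15.9% lower): Grm3 at 4.16, Grm7 at 1.89, Gabrg1 at 1.49 and Grm8 at 0.33 were higher at 96 hours, and Gria4 at -0.78 and Grik5 at -0.67 were lower. The Grm7 and Grm8 calls were lost without single combination arrays (replicates 1 and 2 at 48 hours and 3 at 96 hours for Grm7, replicates 2 and 3 at 48 hours and 3 at 96 hours for Grm8, adjusted p up to 0.134 and 0.122). In T3 cultures Gabrg1 passed at 0.99 (1 of 46, 8.34% of all genes, adjusted p = 0.0121), though not without T3 replicate 1 at 48 hours or 2 at 96 hours (up to 0.0902). In quetiapine cultures Gabrd was the 1 gene called (3.43% of all genes). With the block 7 genes passed in combination cultures (39.1% of all genes), 6 in T3 cultures (24.1%) and 2 in quetiapine cultures (14%). The effect of the combination differed between 96 and 48 hours for 3 genes (8.17% of all genes), Grm3 at 4.40, Gabrg1 at 1.28 and Grm8 at 0.52, and that of T3 or quetiapine for 0 of 46 (0.0563% and 0.134% of all genes), with 4 and 1 at an unadjusted p under 0.05. With the block 7 genes passed for the combination effect (22.0% of all genes) and again 0 for that of T3 or quetiapine (1.37% and 1.41%).

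The 20 receptor genes that passed in no comparison and in neither fit, with all arrays kept, had changes against control between -0.25 and 0.41.

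Genes that handle the transmitters or hold the receptors were counted from lists of known members. Of 10 measured genes of glutamate transport and metabolism, T3 plus quetiapine changed 4 at 96 hours, 1 higher and 3 lower, with a median change of -0.25, against -0.01 over all genes. With the block 6 passed. In this comparison 35.1% of all genes were called, 47.6% with the block, and counts near these shares are no result about a list. The neutral amino acid carrier Slc1a4 (-1.50), the glial glutamate transporter Slc1a3 (-1.46) and the glutamate dehydrogenase Glud1 (-0.93) fell, and the other main glial transporter, Slc1a2, rose (0.98). T3 changed 4 of these genes (2 higher, 2 lower, beside 14.7% of all genes) and quetiapine 1, Glud1 at -0.66 (beside 7.25%). Of 10 genes of GABA and glycine synthesis, transport and breakdown, 0 rose and 3 fell with the combination, 5 with the block (median change -0.49): Abat, the GABA transaminase, at -0.98, Aldh5a1, the next enzyme of GABA breakdown, at -0.92 and the glycine transporter Slc6a9 at -0.80. Abat and Aldh5a1 also fell with quetiapine, at -0.72 and -0.75, and the median change of the list with T3 was -0.14.

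Of 24 auxiliary and scaffold genes of glutamate receptors, 1 rose and 6 fell with T3 plus quetiapine (median change -0.04), beside 15.2% and 20.0% of all genes. Those that fell were the AMPA receptor auxiliary subunit Cnih2 at -1.85 and the scaffold genes Shank1 at -1.0, Shank3 at -0.96, Homer2 at -0.82, Homer1 at -0.75 and Grip1 at -0.39, whereas the scaffold gene Dlg1 rose by 1.44. T3 changed 6 of the 24 (1 higher, 5 lower, beside 6.58% and 8.08% of all genes) and quetiapine 3 (1 higher, 2 lower, beside 4.21% and 3.04%). With the block 2 rose and 7 fell with the combination, 1 and 6 with T3, and 1 and 6 with quetiapine (47.6%, 30.1% and 21.5% of all genes called). Of 8 such genes of GABA and glycine receptors, the combination raised 1 and lowered 2 (median change 0.23), and raised 3 and lowered 2 with the block. Plcl1, which binds GABA-A receptors and their trafficking partners, rose by 2.37, and gephyrin (Gphn), the scaffold of inhibitory synapses, and Nlgn2, an adhesion protein of these synapses, fell by 0.45 and 0.67. Plcl1 rose by 1.69 with T3 and by 1.66 with quetiapine too, and Nlgn2 was at -0.85 and -0.47. All of these calls were made in limma at an adjusted p under 0.05.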

How the data were processed

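Total RNA was labelled with biotin and hybridised to 24 Affymetrix arrays. The authors deposited log2 expression values made with RMA (version not given in the sources used here), which were used as they stood. The deposited table held 31099 probe sets, of which 57 controls were left out and 31042 tested (20826 with 1 symbol, 436 with several, 9780 with none). Array medians were 6.43 to 6.51, and arrays of a condition correlated at 0.986 to 0.996 (Pearson r). Symbols came from the platform annotation in GEO. Neighbouring genes were read from the RefSeq table of a Rattus rattus assembly, the species GEO's labels give, in which 46 of 46 symbols matched, although the study's methods name Sprague Dawley rats. No sequence is shown. For arrays, their number limits the precision.

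limma 3.58.1 in R 4.3.3 was fitted to the 12 arrays of each time with 4 group means and no replicate term, and to all 24 for comparisons between times. P-values were adjusted by Benjamini-Hochberg over all probe sets. The fit to the 96 hour arrays without a replicate term was tested on simulated data. Those data held no replicate effect, so the test does not cover the pairing of arrays described next. The design text says that each of 3 biological replicates gave a culture of every condition. Deviations of same-numbered arrays from their group means correlated at 0.43 to 0.777 (48 hours) and 0.309 to 0.69 (96 hours), so the numbers pair the arrays. Block fits are printed beside the counts of receptor genes they alter, and beside single calls and list counts only in part.

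Alternatives were this block, array centring, a filter on low values, the mean of a gene's probe sets, a trended and robust prior, a fold over 1.5 and leaving out each array. The fits with an array left out had no replicate term. Values per array are given, in order of family, for members called against control without the block, except Glra2, which has a mean and SD. Gria3, Gria4 and Grin2c are also given by array, although the probe set used was not called against control without the block. The members and lists were chosen with earlier results of these data known.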

Additional observations from a re-analysis of the deposited data

Results flagged for a closer look

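Grm3, Gabrg1 and Grm8 responded to T3 plus quetiapine differently at 96 and at 48 hours, by the test of that difference in limma. The effect on Grm3 differed by 4.40 (adjusted p = 0.00156), that on Gabrg1 by 1.28 (adjusted p = 0.0164) and that on Grm8 by 0.52 (adjusted p = 0.0395). The Grm3 value rests on 48 hour levels around the 4.65 median of genes of other organs and is a difference of measured signal. The Grm8 difference did not pass with the mean of its probe sets (adjusted p = 0.158) or without any 1 of 9 arrays. The Gabrg1 difference was lost without combination replicate 2 at 96 hours (adjusted p = 0.0578).

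The effects of the single agents against the shared control differed for 3 genes, by the test of quetiapine against T3. Gabbr2 gave -1.58 at 48 hours (adjusted p = 0.000493 in limma) and -1.80 at 96 hours (adjusted p = 0.000383), with every quetiapine array below and every T3 array above control at both times. Gabrg1 gave -1.29 at 96 hours (adjusted p = 0.0189), a call lost without quetiapine replicate 1 or 3 or T3 replicate 2 or 3 (adjusted p up to 0.0965). Gabra4 gave 0.80 at 96 hours (adjusted p = 0.0458). That call was lost on leaving out most of the single arrays (adjusted p up to 0.192), and the quetiapine arrays of Gabra4 overlapped control.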

How the results depend on the processing

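The replicate block moved most counts of receptor genes called. Against control at 48 hours it gave 7 in place of 1 with T3, 2 in place of 0 with quetiapine and 13 in place of 3 with the combination. At 96 hours it gave 12 in place of 6 with T3 and 8 in place of 3 with quetiapine. Quetiapine against T3 gave 3 in place of 1 at 48 hours and 6 in place of 3 at 96 hours. The combination gave 8 in place of 0 against T3 and 13 in place of 3 against quetiapine. At 96 against 48 hours the block gave 3 in place of 0 in control, 6 in place of 1 in T3 and 2 in place of 1 in quetiapine cultures, and 7 in place of 3 for the difference of the combination effect. The block took away none of the calls named in the text. With the filter on low values 8 in place of 13 passed for the combination at 96 hours. That filter leaves out probe sets whose mean is under the median, so Grm3, Grm7, Grm2, Gabra2, Gabrb2 and Glra2 were not tested under it. Gabrd, the 1 call between the times in quetiapine cultures, was lost (count of 0) with array centring, the mean of probe sets, the trended prior and the fold limit of 1.5. No named change reversed.

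Leaving out 1 array at a time, the counts against control ran from 1 to 1 (T3), 0 to 0 (quetiapine) and 0 to 4 (combination) at 48 hours, and from 2 to 7, 0 to 3 and 9 to 14 at 96 hours. The 3 calls of the combination at 48 hours became 0 without combination replicate 3 and 1 without combination replicate 2 or control replicate 2 or 3. The 6 calls of T3 became 2 without T3 replicate 2 and 3 without control replicate 3. The 3 calls of quetiapine became 0 without quetiapine replicate 1 or 3 or control replicate 3, and 1 without control replicate 2 or T3 replicate 2 or 3. Without control replicate 1 they were 2, Gabbr2 and Grm7 being lost and Grm2 gained. Quetiapine against T3 ran from 1 to 1 at 48 hours and 1 to 3 at 96 hours (1 without T3 replicate 2 or 3 or quetiapine replicate 3), the combination from 0 to 1 against T3 (1 without combination replicate 1) and 3 to 4 against quetiapine, and the interaction from 0 to 0. Between the times the ranges were 0 to 1 in control (1 without control replicate 1 at 96 hours), 0 to 4 in T3 (4 without T3 replicate 1 at 96 hours, 2 without combination replicate 1 or 3 at 96 hours, 0 without T3 replicate 1 at 48 or 2 at 96 hours), 0 to 1 in quetiapine and 3 to 6 in combination cultures (3 without combination replicate 2 at 48 or 3 at 96 hours). The differences of effect ran from 0 to 0 (T3), 0 to 0 (quetiapine) and 1 to 4 (combination, 1 without combination replicate 2 at 96 hours). The cause of these shifts was not tested.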
